A study of Juglans cathayensis with 6 samples.

Results

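The genes described here encode enzymes that free phosphate from organic molecules and enzymes that take membrane phospholipids apart or make the lipids that can replace them. They were picked from the RNA-seq table of *Juglans cathayensis* (Chinese walnut) husk by the words of the main protein description: purple acid phosphatase, other acid phosphatase, glycerophosphodiester, phospholipase, sulfoquinovosyl, monogalactosyldiacylglycerol, digalactosyldiacylglycerol, phosphocholine phosphatase or ribonuclease 1. Of 39234 listed assembled genes, 87 matched, and none matched phosphocholine phosphatase. The group was put together with the difference between brown and white husk already known, so the values of that difference are a description of these libraries and lend no independent weight to a theme.

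Husk is the fleshy outer layer of the walnut fruit. To learn about enzymatic browning, the study sequenced husk of 2 varieties, one white and one brown when freshly cut, with 3 libraries of each. All 6 libraries carry a time label of 35 days, with no stated starting event, and their labels give no special treatment. Each colour is a different variety, so colour and any other difference between the varieties cannot be told apart. No label says that the libraries of a variety came from separate trees, so p-values speak only to the spread of these samples, possibly a technical one.

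Phosphate is taken up by plants as the free ion, while much of the phosphate around and inside cells is bound in esters, nucleic acids and phospholipids. Purple acid phosphatases, secreted or vacuolar metal enzymes, and ribonucleases of the RNS1 type release it. Phospholipases and glycerophosphodiester phosphodiesterases (GDPDs) degrade phospholipids, and galactolipids and the sulfolipid, which hold no phosphate, can take their place in membranes. In Arabidopsis, genes of each of these kinds are known to respond to low phosphate supply. Phospholipases also act in signalling, and many of their genes are not tied to phosphate supply.

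Levels are given as TPM, a share of all transcripts that is corrected for gene length. Each log2 fold change is the brown mean less the white mean of log2(TPM + 1), and understates the change of low genes. A gene is said to have risen or fallen where its adjusted p is under 0.05 (limma with a mean-variance trend, Benjamini-Hochberg over 37829 tested genes). In bulk tissue, fewer cells of a type and less RNA per cell cannot be told apart.

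The libraries were not alike. White replicate 2 held 28349 genes at 1 TPM or more, against 33146 to 35240 in the others, and its 100 highest genes took 33.97% of TPM, against 24.7% to 27.2%. It was the lowest white library for 63.4% of tested members and for 60.6% of all tested genes. Husk has no marker list of its own here. Of markers for other tissues, both listed oleosins (seed oil body proteins) were present, with summed levels of 36.2 to 52.0 TPM in white husk and 12.3 to 23.9 TPM in brown, and 1 of them fell, a call lost in all 6 fits with a library left out. Chlorophyll a-b binding proteins, of green tissue, overlapped in their sums between the varieties at 3156 to 3859 and 1894 to 3491 TPM, with brown replicate 2 lowest. Of 14 genes limma called none, with 3 at an unadjusted p under 0.05. The median log2 fold change of the 14 was -0.41, against 0.19 for all tested genes. The 5 secondary wall cellulose synthase genes of shell and vessels summed to 12.9 to 19.8 and 16.7 to 18.7 TPM, and 1 of them rose, a call held in 3 of those 6 fits. The 9 sieve element occlusion genes, of the phloem, summed to 172 to 300 and 133 to 242 TPM. None was called, and 4 had an unadjusted p under 0.05 by limma. Their sums overlapped, but the median log2 fold change of the 9 was 0.86, against 0.19 for all tested genes. The part of these tissues in the results below was not tested.

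Together the 87 members made up a small share of the transcriptome that was larger in every brown library. They summed to 1662, 1471 and 1608 TPM in white replicates 1, 2 and 3 and to 2414, 2554 and 2574 TPM in brown replicates 1, 2 and 3. The ratio of the means was 1.59, and 1.54 without white replicate 2. Genes that rose accounted for 73.7% of the gain. GDPDs had the largest ratio of the classes with more than 1 member, and purple acid phosphatases had the highest summed level in both varieties.

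**Figure D1:**
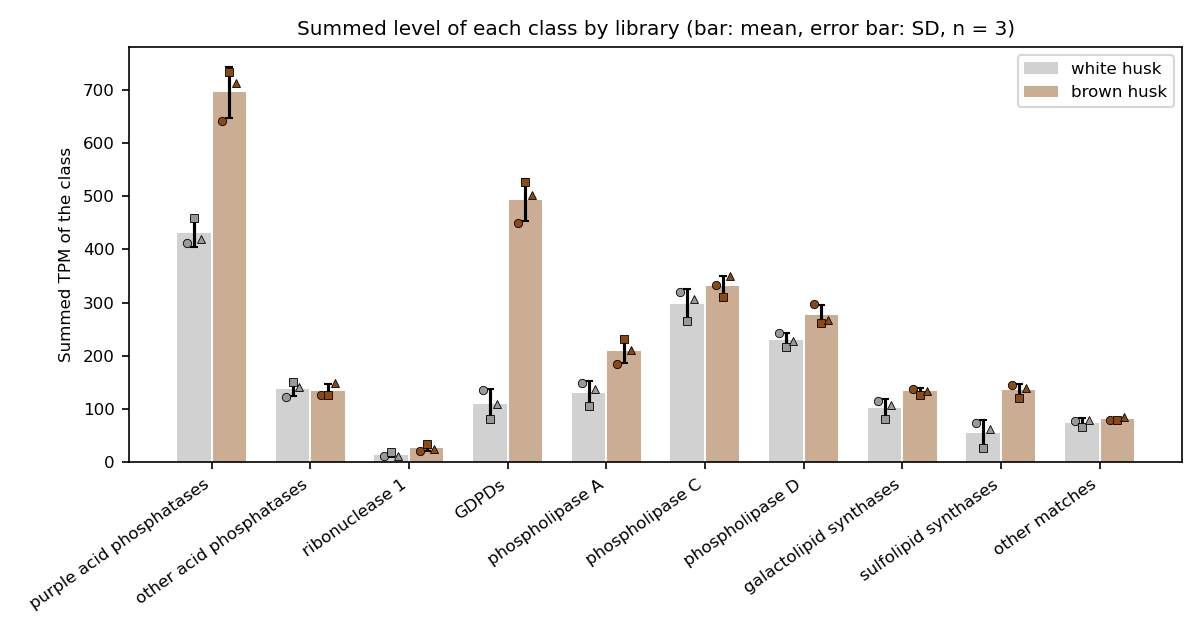
Summed TPM (vertical axis) of each class of members in white and brown husk; bars are means, error bars the SD over 3 libraries, and points the libraries (circle, square and triangle for replicates 1, 2 and 3). GDPDs had means of 109 and 492 TPM and purple acid phosphatases of 431 and 695 TPM, with no overlap, while the other acid phosphatases overlapped.

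Of the 87 members, 82 passed the filter of 1 TPM in at least 3 libraries. Of these, 16 were higher in brown husk (19.5%) and 1 was lower (1.22%), where 3.83% of all tested genes were higher and 2.17% were lower (3.50% and 3.23% when TPM were rescaled by TMM factors). The count of 16 fell to 6, 9, 6 and 4 when white replicate 3 or brown replicate 1, 2 or 3 was left out, and the 1 lower call was lost in each fit with a library left out except the one without white replicate 2, which gave 2. No reading is drawn from these shares, since the members were chosen with this contrast known. Among the 17 called members, 3 reached 1 TPM in no white library and 1 in no brown library, so these passed the filter through the group where they were high. In 33 of the 82 tested members every brown library lay above every white one, and in 6 every brown library lay below. Over all tested genes the shares were 20.2% and 8.85%. The log2 fold change was above 0 in 59 tested members and in 64.3% of all tested genes. The median log2 fold change was 0.31 over the tested members and 0.19 over all tested genes. The 16 rises were spread unevenly: 8 were purple acid phosphatases and 5 were GDPDs, while 1 was a phospholipase A, 1 a phospholipase D and 1 a galactolipid synthase. No call was made among the 12 phospholipase C genes, the 4 other acid phosphatases or the 2 ribonuclease 1 genes, of which 2, 2 and 1 had an unadjusted p under 0.05 by limma. The single sulfolipid synthase was not called either.

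**Figure D2:**
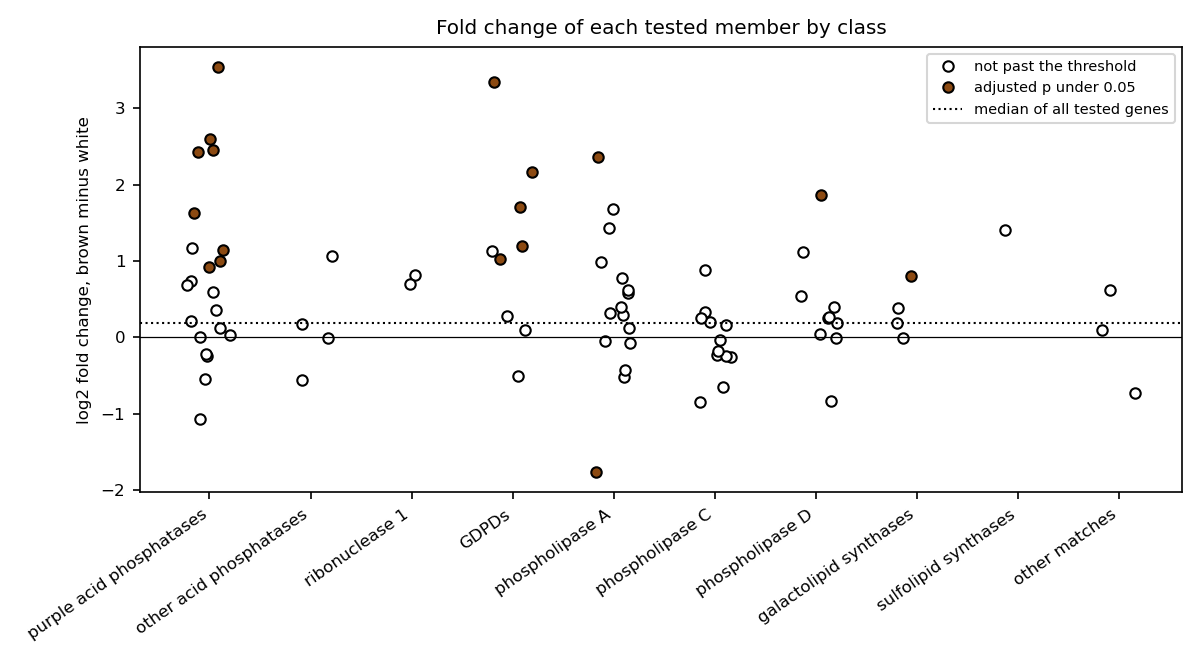
Log2 fold change, brown minus white (vertical axis), of each of the 82 tested members by class; filled points passed an adjusted p of 0.05 and the dotted line is the median of all tested genes, 0.19. Filled points gather in the purple acid phosphatases (8) and GDPDs (5), and the only filled point below 0 is a phospholipase A.

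Purple acid phosphatases had 21 members, all tested, of which 8 rose and none fell. The summed level of the class was 412, 460 and 420 TPM in white replicates 1 to 3 and 642, 733 and 712 TPM in brown replicates 1 to 3. Members that rose held 21.4% of the summed level in white and 55.0% in brown husk. The rest of the class summed to a mean of 339 TPM in white husk and 313 TPM in brown.

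A purple acid phosphatase 17-like gene (TRINITY_DN9194_c0_g1) had the largest difference of any member on the log2(TPM + 1) scale; some low members had larger ratios of means. PAP17 of Arabidopsis is a small purple acid phosphatase known for its response to low phosphate. The walnut gene stood at 13.0, 10.2 and 11.7 TPM in white replicates 1 to 3 and at 120, 173 and 147 TPM in brown replicates 1 to 3. The means were 11.7 ± 1.42 and 147 ± 26.3 TPM (SD, n = 3 each), a 12.6-fold ratio. The log2 fold change was 3.54 ± 0.17 (SE; adjusted p = 0.000142 by limma), and the call held whichever of the 6 libraries was left out. The lowest brown library was thus far above the highest white one. A second gene with the same name (TRINITY_DN7870_c0_g1), an assembled stretch of 307 bases, stayed at 1.03 to 3.63 TPM with overlapping groups.

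Genes matched to purple acid phosphatases 2 and 3 gave 4 more rises. The first purple acid phosphatase 2-like gene (TRINITY_DN11707_c0_g1), matched to jujube and to a soybean Swiss-Prot entry, had 3.10, 2.16 and 5.27 TPM in white husk and 17.7, 27.2 and 22.8 TPM in brown. The difference on the log2 scale, 2.42 ± 0.30 (SE; adjusted p = 0.00635 by limma), also held in all 6 such fits. The other (TRINITY_DN12219_c0_g1) had 12.01, 8.59 and 10.5 TPM in white husk and 23.2, 25.4 and 23.2 TPM in brown. Both were separate between the varieties, and the second, with the tighter brown libraries, missed the threshold when white replicate 3 or either of brown replicates 2 and 3 was left out.

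Of the purple acid phosphatase 3-like genes, TRINITY_DN13092_c1_g3 had 23.2, 5.65 and 17.9 TPM in white husk and 80.0, 73.0 and 82.5 TPM in brown. White replicate 2 was the low point of an uneven white group, and the call (log2 fold change 2.45 ± 0.44, limma adjusted p = 0.0215) was lost without white replicate 3 or any 1 brown library. TRINITY_DN14646_c0_g3 was near absent in white husk, at 0.32, 1.16 and 0.51 TPM, and had 11.8, 5.28 and 10.8 TPM in brown husk; it missed the threshold only without brown replicate 3. A short stretch in the cluster of the former (TRINITY_DN13092_c1_g9, 398 bases) overlapped between the groups at 0.64 to 3.72 TPM.

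The remaining 3 rises were of genes described as probable inactive, which names proteins of the family that lack residues of the active site. Probable inactive purple acid phosphatase 1 (TRINITY_DN13414_c0_g3) had 30.5, 25.8 and 32.6 TPM in white husk and 49.8, 65.5 and 56.2 TPM in brown (log2 fold change 0.92 ± 0.16, limma adjusted p = 0.0191). Probable inactive purple acid phosphatase 2 (TRINITY_DN14493_c2_g13) had 24.8, 16.0 and 20.6 TPM in white husk and 35.6, 41.9 and 47.5 TPM in brown. Both changed by about the same ratio of means, 1.93 and 2.04. The third, a probable inactive purple acid phosphatase 27 gene (TRINITY_DN13657_c1_g8), was low in both varieties, at 0.14 to 0.20 TPM in white husk and 2.33 to 3.23 TPM in brown. All 3 calls were lost when white replicate 3 was left out, and likewise for brown replicates 2 and 3.

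The most abundant member of the class was not called. Probable inactive purple acid phosphatase 29 (TRINITY_DN14795_c1_g2) had 135, 237 and 169 TPM in white husk and 139, 160 and 153 TPM in brown (adjusted p = 0.599 by limma). It was the most abundant purple acid phosphatase by mean level and took 41.8% of the summed class level in white and 21.7% in brown husk. Purple acid phosphatase 18 (TRINITY_DN9911_c0_g1) was level, at 63.9 to 68.1 TPM over all 6 libraries. Bifunctional purple acid phosphatase 26, the main vacuolar acid phosphatase of Arabidopsis leaves, was matched by 2 genes of 1 cluster. TRINITY_DN14969_c0_g1 had 14.9 to 19.5 TPM in white husk and 23.7 to 30.6 TPM in brown (adjusted p = 0.0907), and TRINITY_DN14969_c0_g4 overlapped between the groups at 7.72 to 9.66 TPM. A second gene described as inactive purple acid phosphatase 27 (TRINITY_DN14522_c2_g1) ran the other way, at 32.1 to 40.4 TPM in white husk and 18.1 to 28.3 TPM in brown (adjusted p = 0.167). Its Swiss-Prot description is a V-type proton ATPase subunit, so its values may not be those of a phosphatase. By annotation, 18 of 21 members carried the GO term extracellular region and 17 the metallophosphoesterase Pfam domain.

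Among the 4 other acid phosphatases none was called, and the most abundant pair moved in opposite directions without passing. Acid phosphatase 1-like (TRINITY_DN14840_c1_g7) had 88.8, 110 and 105 TPM in white husk and 68.9, 53.7 and 86.9 TPM in brown (log2 fold change -0.55 ± 0.20, limma adjusted p = 0.159). Acid phosphatase 1 (TRINITY_DN13532_c1_g1) had 17.2, 33.6 and 23.8 TPM in white husk and 42.7, 63.4 and 49.97 TPM in brown. Its adjusted p was 0.0576 by limma, and 0.0285 without white replicate 2, which was the highest white library for this gene. The class as a whole summed to 122 to 151 TPM in white husk and 126 to 150 TPM in brown.

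Ribonuclease 1, the RNA-degrading enzyme that frees nucleotides for phosphatases, was matched by 2 genes, neither called. The longer (TRINITY_DN11774_c3_g8) had 7.88, 16.5 and 11.1 TPM in white husk and 13.5, 30.1 and 21.7 TPM in brown (adjusted p = 0.227 by limma). Replicate 2 was the highest library in each variety, and the groups overlapped. The shorter (TRINITY_DN12614_c2_g1) had 1.68 to 3.58 and 3.24 to 8.04 TPM.

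GDPDs split glycerophosphodiesters left by phospholipid breakdown into glycerol-3-phosphate and an alcohol. The class also takes in GDPD-like genes, described below, for which that role is not claimed. It had 9 members, all tested, and 5 rose while none fell. The summed level of these 9 was 136, 80.4 and 110 TPM in white replicates 1 to 3 and 449, 527 and 502 TPM in brown replicates 1 to 3. This was a 4.52-fold ratio of means, or 3.99-fold without white replicate 2. Most of the gain lay in 1 gene: GDPD1-like (TRINITY_DN13219_c1_g1) took 28.8% of the class in white and 64.9% in brown husk.

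That GDPD1-like gene was the highest of all 87 members in brown husk. It had 40.8, 22.2 and 31.3 TPM in white replicates 1 to 3 and 304, 326 and 329 TPM in brown replicates 1 to 3. The means were 31.4 ± 9.32 and 320 ± 13.7 TPM (SD, n = 3 each), a 10.2-fold ratio; on the log2 scale the difference was 3.34 ± 0.22 (SE; adjusted p = 0.000498 by limma). The brown libraries lay within a narrow range, and the call held whichever library was left out. A stretch of 363 bases in the same cluster with the same name (TRINITY_DN13219_c1_g4) was listed at 0 in every white library, against 2.54, 1.51 and 2.92 TPM in brown husk, and may be part of the same transcript. GDPD1 of Arabidopsis is a chloroplast enzyme.

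GDPD6 (TRINITY_DN15112_c0_g8) was nearly constant in white husk, at 9.51, 9.42 and 9.11 TPM, and had 39.4, 56.7 and 41.6 TPM in brown husk. Its log2 fold change was 2.16 ± 0.17 (SE, limma adjusted p = 0.00123), and it too passed in all 6 fits. GDPD4 (TRINITY_DN10794_c0_g2), by contrast, stayed at 11.2 to 12.6 TPM with overlapping groups; the difference between these genes was not tested.

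The GDPD-like (GDPDL) proteins are membrane-anchored relatives that in Arabidopsis act in cell wall organization, and 2 GDPDL3-like genes rose. TRINITY_DN15389_c0_g1 had 26.5, 16.5 and 23.1 TPM in white husk and 39.7, 48.9 and 47.5 TPM in brown (log2 fold change 1.03 ± 0.20, limma adjusted p = 0.0278). TRINITY_DN11714_c0_g2 had 10.1, 4.99 and 8.87 TPM in white husk and 15.5, 22.3 and 19.8 TPM in brown, with an adjusted p of 0.0482 by limma. These calls held in 2 and 1 of the 6 fits with a library left out: both without white replicate 2, and each was lost without white replicate 3 or any 1 brown library. A 418-base stretch in the cluster of the latter (TRINITY_DN11714_c0_g1) had 10.5 to 25.9 and 28.8 to 52.3 TPM without passing (adjusted p = 0.111). GDPDL7 (TRINITY_DN12133_c1_g5) had 2.99 to 3.83 and 4.18 to 4.68 TPM, and the short GDPDL1-like stretch (TRINITY_DN15389_c0_g4) overlapped between the groups.

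**Figure D3:**
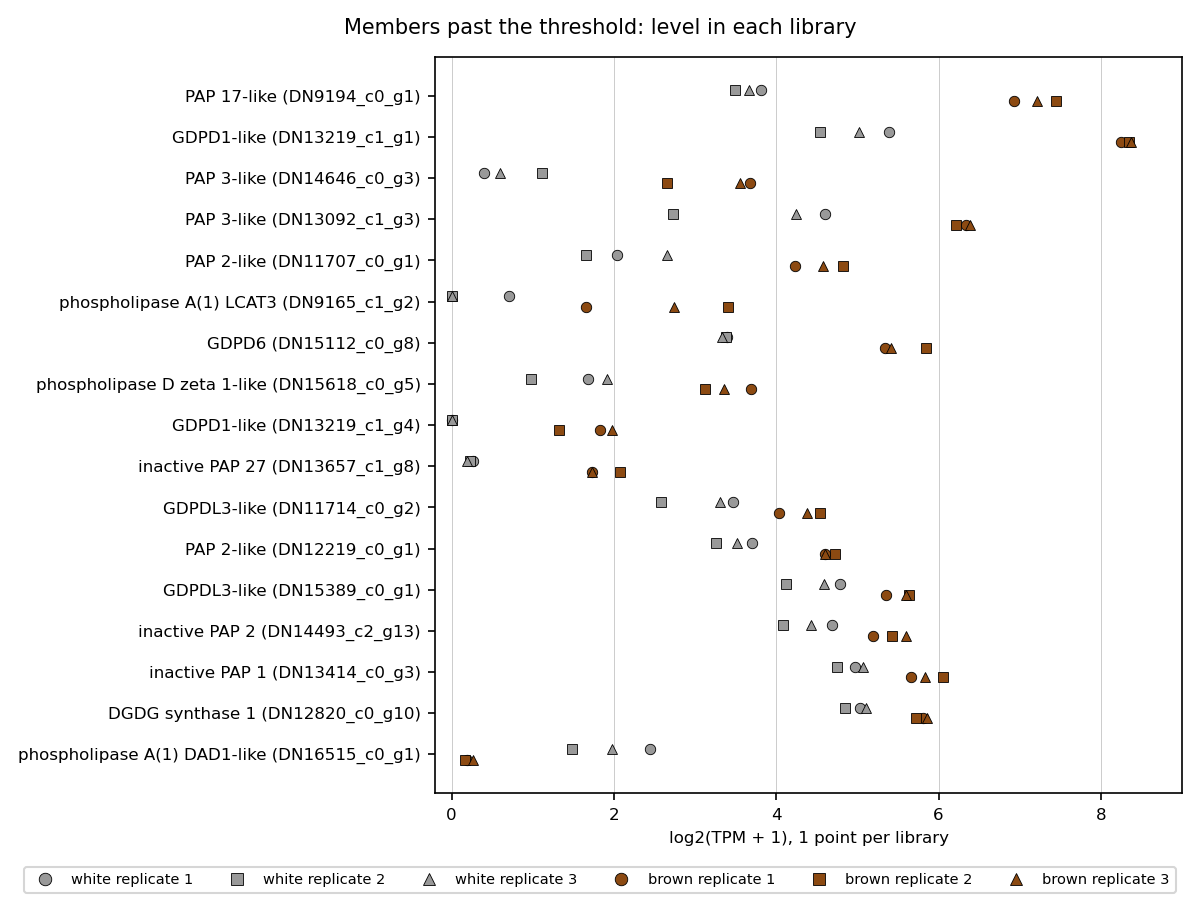
Level of the 17 members past the threshold in each library as log2(TPM + 1) (horizontal axis), ordered by fold change; grey points are white and brown points brown husk, with 1 marker shape per replicate number. PAP stands for purple acid phosphatase and DGDG for digalactosyldiacylglycerol. For 16 genes every brown library lies above every white one, and for phospholipase A(1) DAD1-like every brown library lies below.

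Phospholipases A, which cut a fatty acid from phospholipids, were matched by 20 genes, of which 16 were tested, 1 rose and 1 fell. Both calls were on low genes. Phospholipase A(1) DAD1-like (TRINITY_DN16515_c0_g1), whose Arabidopsis relative releases the fatty acid precursor of jasmonate, was the only member that fell. It had 4.44, 1.79 and 2.94 TPM in white husk and 0.14, 0.12 and 0.20 TPM in brown. Its log2 fold change was -1.76 ± 0.35 (SE, limma adjusted p = 0.0303), and it passed in 1 of the 6 fits, the one without white replicate 2. The gene that rose was a 281-base stretch matched to phospholipase A(1) LCAT3 (TRINITY_DN9165_c1_g2), with 0.63, 0 and 0 TPM in white husk and 2.14, 9.60 and 5.71 TPM in brown. Its call was lost in 5 of the 6 fits, white replicate 2 among the libraries left out (adjusted p = 0.0901). A 207-base stretch (TRINITY_DN9165_c1_g1) from the same cluster and a 780-base one (TRINITY_DN9165_c0_g1) carry the same name, so the 3 may be parts of 1 gene.

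The most abundant phospholipases A came close to the threshold without passing. Phospholipase A2-alpha-like (TRINITY_DN13388_c1_g3), a small secreted type, had 52.6, 26.9 and 47.9 TPM in white husk and 74.3, 82.8 and 88.6 TPM in brown. Its adjusted p was 0.0664 by limma, and 0.0288 without white replicate 2. Phospholipase A1-IIdelta-like (TRINITY_DN14600_c0_g1) had 27.4, 23.0 and 23.4 TPM in white husk and 38.9, 33.2 and 39.3 TPM in brown (adjusted p = 0.0638). In both, no brown library reached down to the white ones. The patatin-like phospholipase (TRINITY_DN11343_c0_g1) and a phospholipase A2 homolog (TRINITY_DN16117_c0_g1) overlapped, at 14.2 to 17.9 and 11.1 to 15.8 TPM over all libraries.

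Brown replicate 2 stood out in 4 short stretches matched to phospholipase A1-Igamma1, a chloroplast type, none of which passed the filter. TRINITY_DN7227_c0_g1 had 0, 11.2 and 2.26 TPM in brown replicates 1 to 3 and TRINITY_DN7227_c0_g3 had 0.84, 9.16 and 2.00 TPM. TRINITY_DN7227_c0_g2 had 0, 5.65 and 2.29 TPM and TRINITY_DN4082_c0_g1 had 0.36, 5.27 and 1.89 TPM. All 4 were at 0 in white replicates 2 and 3, and brown replicate 1 was always the lowest brown library. Over the tested members brown replicates 1, 2 and 3 were the highest brown library for 26, 32 and 24 genes; over all tested genes this was so for 40.1%, 35.3% and 23.9%.

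Phospholipase C genes, which cut off the phosphorylated head group, had 12 tested members and no call. Non-specific phospholipase C1-like (TRINITY_DN11834_c0_g1) had 100, 114 and 106 TPM in white husk and 143, 105 and 161 TPM in brown (adjusted p = 0.345 by limma). Phosphoinositide phospholipase C 2-like (TRINITY_DN14621_c1_g4), of the signalling branch that acts on phosphoinositides, had 114, 81.4 and 99.9 TPM in white husk and 110, 126 and 113 TPM in brown (adjusted p = 0.414). Both leading genes overlapped between the varieties. The member closest to the threshold without passing ran lower in brown husk: phosphoinositide phospholipase C 7-like (TRINITY_DN15767_c0_g2) had 23.4, 15.9 and 24.7 TPM in white husk and 10.9, 11.7 and 11.2 TPM in brown, with every brown library below every white one. Its log2 fold change was -0.84 ± 0.20 (SE; adjusted p = 0.0535 by limma), and it passed only without white replicate 2. The class median log2 fold change was -0.10, below the 0.19 of all tested genes, and 5 of its 12 members were above 0.

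Phospholipase D genes, which make phosphatidic acid from phospholipids, had 10 tested members and 1 rise. Phospholipase D zeta 1-like (TRINITY_DN15618_c0_g5) had 2.20, 0.97 and 2.77 TPM in white husk and 11.9, 7.68 and 9.23 TPM in brown (log2 fold change 1.86 ± 0.33, limma adjusted p = 0.0211). The zeta type takes part in phospholipid turnover under low phosphate in Arabidopsis. The call was lost without any 1 brown library and held without each white one. Another zeta 1 gene in the same cluster (TRINITY_DN15618_c0_g7) overlapped, at 4.96 to 9.87 TPM in white husk and 6.25 to 8.72 TPM in brown, as did the third (TRINITY_DN15940_c1_g1); the difference between these genes was not tested.

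Phospholipase D alpha 1-like (TRINITY_DN15693_c0_g1) was the most abundant phospholipase of any type. It had 157, 175 and 152 TPM in white husk and 192, 186 and 176 TPM in brown (log2 fold change 0.19 ± 0.13, limma adjusted p = 0.444; -0.02 with TMM scaling). It held 70.4% of its class in white and 66.8% in brown husk. Phospholipase D delta-like (TRINITY_DN13426_c1_g1) had 25, 7.55 and 21.5 TPM in white husk and 25.1, 17.5 and 22.8 TPM in brown, and its log2 fold change of 0.40 turned to -0.10 without white replicate 2.

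The galactolipid synthases, which build the main lipids of chloroplast membranes, had 5 members, of which 4 were tested and 1 rose. Digalactosyldiacylglycerol synthase 1 (TRINITY_DN12820_c0_g10) had 31.7, 27.7 and 33.4 TPM in white husk and 55.0, 51.7 and 57.0 TPM in brown (log2 fold change 0.80 ± 0.13, limma adjusted p = 0.0167). It was even within each variety, but the call was lost without white replicate 3 or any 1 brown library. Among the 14 other tested genes of its assembly cluster, 1 was also higher and 1 (TRINITY_DN12820_c0_g14) was lower. Neither is a member, so the main description of neither names this enzyme. Whether either is an allele or close copy of it cannot be told here. Digalactosyldiacylglycerol synthase 2-like (TRINITY_DN14092_c0_g3), the form tied to low phosphate in Arabidopsis, had 38.0, 29.2 and 35.9 TPM in white husk and 36.3, 31.6 and 34.3 TPM in brown (adjusted p = 0.988). Monogalactosyldiacylglycerol synthase 2-like (TRINITY_DN12679_c0_g1), of the type that also answers low phosphate in Arabidopsis, overlapped at 15.2 to 31.0 and 23.8 to 29.9 TPM (adjusted p = 0.726). A stretch of 464 bases with the same name in its cluster (TRINITY_DN12679_c0_g2), matched in Swiss-Prot to monogalactosyldiacylglycerol synthase 3, did not pass the filter; it had 0.18, 0.13 and 0.15 TPM in white husk and 0.61, 3.93 and 2.97 TPM in brown, without overlap.

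Sulfolipid synthesis was represented by 1 member, sulfoquinovosyl transferase SQD2 (TRINITY_DN13706_c1_g1), the enzyme of its last step. It had 74.5, 26.8 and 62.7 TPM in white husk and 144.5, 121 and 139 TPM in brown, with every brown library above every white one. Its log2 fold change was 1.41 ± 0.35 (SE, limma adjusted p = 0.0639). White replicate 2 set much of the white spread: without it the log2 fold change was 0.97 and the adjusted p = 0.0179 by limma. The gene also passed the threshold without white replicate 1, where white replicate 2 was kept. The remaining matches were a phospholipase A-2-activating protein (TRINITY_DN12116_c0_g1), level at 52.3 to 66.3 TPM, and phospholipase SGR2 (TRINITY_DN14257_c0_g1), at 6.63 to 10.8 and 13.9 to 15.5 TPM. A palmitoyl-monogalactosyldiacylglycerol desaturase (TRINITY_DN11208_c0_g1) had 4.25 to 6.64 and 1.76 to 4.10 TPM. None of these 3 was called.

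Features not used to pick the members set the called genes in context. Of the 87 members 18 were assembled stretches under 500 bases, of which 2 were called. The called members had a median length of 1813 bases and the others 1424 bases. The 87 genes fell in 63 assembly clusters, and 43 shared a cluster with another member, so several may be parts, alleles or copies of 1 gene whose reads can be split between them. The coefficient of variation within a variety had a median of 28.6% in white and 14.2% in brown husk for tested members, against 36.8% and 26.2% for all tested genes. The GO term extracellular region was carried by 29 members and by 7 of the 16 that rose. A GO term naming phosphate starvation was carried by 8 members, of which 1 was not tested and 1 rose, the phospholipase D zeta 1-like gene. Over all tested genes with such a term, members included, 3 of 29 rose and none fell. Of the 22 that are no members 2 rose and none fell, where 3.83% of all tested genes rose.

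Genes of the same pathways that are no members were counted in 6 lists of text patterns. The lists held 11, 14, 19, 23, 22 and 15 tested genes, in the order given below. Over them 14 rose and 1 fell, where 3.83% of all tested genes rose and 2.17% fell. The 14 that rose became 7, 9 and 8 without white replicate 3, brown replicate 2 and brown replicate 3. The 1 that fell became 5 with TMM factors, 3 with quantile normalization, 2 with array weights, 3 without white replicate 2, and 0 when white replicate 3 or either of brown replicates 2 and 3 was left out. The list of SPX proteins had 5 of 11 tested genes higher. Those named SPX protein by number are sensors of inositol phosphates that hold back the phosphate response. The list also held genes described as SPX domain-containing membrane proteins, for which that role is not claimed. Of the rises, 1 was of this membrane type (TRINITY_DN11531_c0_g2). This 299-base stretch was at 0 in every white library and at 3.02, 3.05 and 6.32 TPM in brown. It thus passed the filter through the group where it was high. The most abundant pair to rise was SPX protein 1-like (TRINITY_DN12073_c0_g2), with means of 37.2 ± 4.85 and 108 ± 4.37 TPM, and SPX protein 3-like (TRINITY_DN13421_c0_g2), with 9.38 ± 0.601 and 117 ± 27.5 TPM (SD, n = 3 each). Both calls held in all 6 fits with a library left out. So did those of the SPX protein 2-like genes TRINITY_DN12208_c0_g2 and TRINITY_DN12208_c0_g9, which share 1 cluster and may be copies or parts of 1 gene. These had the largest log2 fold changes of the list, 4.41 and 4.38. Their means were 3.11 and 1.16 TPM in white husk and 78.0 and 42.0 TPM in brown, in that order. Phosphate transporters had 3 of 14 higher, led by inorganic phosphate transporter 1-8 (TRINITY_DN12446_c0_g1), at 6.12 to 7.47 and 15.8 to 17.3 TPM, and transporter 1-4-like (TRINITY_DN12003_c0_g2), at 1.83 to 4.13 and 10.04 to 25.8 TPM. These 2 calls held in 4 and 3 of the 6 fits with a library left out. The other rise was a 265-base stretch also named transporter 1-4-like (TRINITY_DN865_c0_g1). It had 0, 0.51 and 0 TPM in white husk and 5.82, 4.19 and 3.31 TPM in brown, so it too passed the filter through brown husk.

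Regulators of the phosphate response had 1 of 19 higher and 1 lower. The rise was in ubiquitin-conjugating enzyme E2 24 (TRINITY_DN13135_c0_g1), which in Arabidopsis marks phosphate transport proteins for degradation, with 19.9, 9.06 and 16.3 TPM in white husk and 76.0, 82.8 and 79.2 TPM in brown. The fall was in PHR1-LIKE 2-like (TRINITY_DN12954_c0_g7), of the transcription factor family that switches the response on, with 22.9, 30.7 and 28.4 TPM and 12.01, 8.50 and 12.5 TPM. The rise held in all 6 fits with a library left out, and the fall in 3 of them.

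Other phosphate-releasing enzymes had 3 of 23 higher. Inorganic pyrophosphatase 2-like (TRINITY_DN13518_c2_g3) had 9.08 to 11.03 and 22.01 to 34.6 TPM, and ribonuclease S-7-like (TRINITY_DN4696_c0_g1) 0.71 to 2.48 and 7.64 to 28.2 TPM. Their calls held in 4 and 2 of the 6 fits with a library left out. The remaining rise was in extracellular ribonuclease LE-like (TRINITY_DN13646_c2_g5), at 0.35 to 1.26 and 5.81 to 18.6 TPM, and its call held in 3 of those fits. Other lipid remodelling genes had 2 of 22 higher. Putative glycerol-3-phosphate transporter 1 (TRINITY_DN13204_c1_g6) had 11.8, 6.51 and 9.05 TPM in white husk and 59.3, 45.8 and 54.8 TPM in brown. UDP-sulfoquinovose synthase (TRINITY_DN10561_c0_g1) had 10.5, 7.14 and 9.78 TPM in white husk and 19.9, 20.3 and 21.97 TPM in brown. It makes the sugar donor for SQD2, a member that was not called. These calls held in 6 and 2 of the 6 fits with a library left out. A link of either gene to a member was not tested. The 15 tested genes of phospholipid synthesis gave no call in limma, with 4 at an unadjusted p under 0.05.

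**Figure D4:**
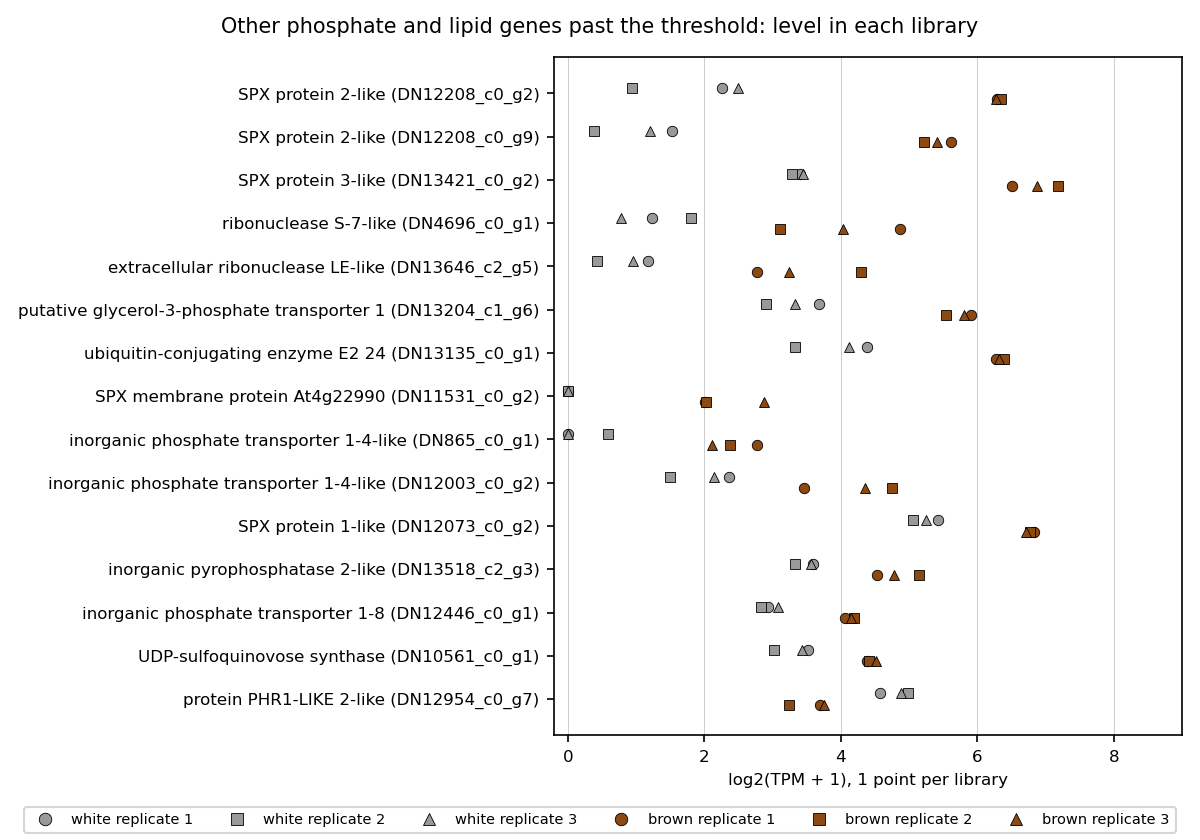
Level of the 15 genes past the threshold in the 6 lists of pathway genes that are no members, as log2(TPM + 1) in each library (horizontal axis); grey points are white and brown points brown husk, with 1 marker shape per replicate number. The brown libraries lie above the white ones for 14 genes and below them for PHR1-LIKE 2-like.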

How the data were processed

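Per the labels' protocols, total RNA of frozen husk was taken up with a commercial plant kit and sequenced from standard Illumina libraries. The submitters' processing notes name cutadapt and FastQC. The gene identifiers deposited by the authors name Trinity, a de novo assembler; which program made the values is not given in the sources used here. What the authors deposited is TPM for each assembled gene. TPM keeps no read depth, so depth is unknown and no counting interval or floor is given, and no gene whose highest value is below 2.01 TPM is listed.

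Brown was compared with white by limma 3.58.1 (R 4.3.3) on log2(TPM + 1), with a trend, no covariate and genes at 1 TPM or more in at least 3 libraries. The fit was tested on simulated data. Members, lists and alternatives were chosen with earlier results of these data known. Named genes are every called member (up to 25), the 2 highest members of each class that reach 10 TPM in a library, and the 2 highest called genes of each pathway list; others were named after their values were seen. Flap endonucleases were left out of the phosphate release list. TMM factors were unweighted trimmed means computed on TPM.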

Additional observations from a re-analysis of the deposited data

How the results depend on the processing

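The 16 members higher in brown husk became 12 to 18 under other pseudocounts, filters, scalings, weights, trend settings and member definitions, 4 to 18 when 1 library was left out, and 10 with the replicate number as a block. Of the 17 called members, 12, 16 and 6 stayed called when white replicate 1, 2 or 3 was left out, and 9, 6 and 4 when it was brown replicate 1, 2 or 3; the sign of all 17 held in each alternative in which they were fitted. The 1 member lower became 2 with TMM factors, quantile normalization or array weights, 0 with the replicate block, and 0 to 2 with 1 library left out. Pathway genes that are no members gave 14 higher and 1 lower; the lower count became 5 with TMM factors, 3 with quantile normalization and 2 with array weights, and with 1 library left out the counts were 7 to 15 and 0 to 3. The array weights did not fully converge. TMM factors moved the median log2 fold change of all genes from 0.19 to 0.02 and quantile normalization to -0.01, and over all genes the 1450 higher and 819 lower calls became 1323 and 1220 or 1259 and 1275; the median of members lay 0.12, 0.09 and 0.17 above that of all genes under these 3 scalings. Signs turned for 4 named genes that were not called: the phospholipase A-2-activating protein (-0.11) and phospholipase D alpha 1-like (-0.017) with TMM factors, phospholipase D delta-like without white replicate 2 (TRINITY_DN13426_c1_g1, -0.10 to 0.70 over the fits with 1 library left out), and digalactosyldiacylglycerol synthase 2-like without white replicate 1, white replicate 3 or brown replicate 2 (TRINITY_DN14092_c0_g3, -0.12 to 0.069). The cause was not tested. Same-numbered libraries are not stated to be paired. Their deviations from the group means correlated at only 0.06, 0.06 and 0.01. Each library correlated best with its own number, but white replicate 1 and brown replicate 2 gave a value of similar size, -0.05. Values this small cannot decide whether libraries were paired. The restriction to members of at least 500 bases (14 higher, 1 lower) was chosen after seeing the data. TPM gives no depth, so what depth limits cannot be stated.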
